A study of Rattus norvegicus with 8 samples.

Results

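The cytosolic ribosomal protein genes encode the proteins of the 40S and 60S subunits of the ribosomes that translate nuclear messages. They were taken as the loci whose RefSeq accessions gave exactly 1 symbol of the form Rpl or Rps followed by a number, or Rplp0, Rplp1, Rplp2 or Rpsa, without the Rps6k kinases and without named copies. The locus of highest mean level stood for each symbol. There were 74 such genes among 14767 symbols with a locus, in a table of 30937 loci, and 71 of them were expressed: 39 of the large subunit, 29 of the small subunit and 3 of the P-stalk. The rule chose the symbols by name alone; a measured value, the mean level, chose between loci only for the 12 genes with more than 1 locus.

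Primary vascular smooth muscle cells were grown from Sprague-Dawley rat thoracic aortas in M199 medium with serum. The control cells carry the treatment label none. The other cells were starved of serum overnight and given 0.1 uM angiotensin II (AngII), a peptide hormone that contracts vessels, for 3 h; the labels state starvation for these cells only, so in this comparison starvation and AngII cannot be told apart. RNA depleted of ribosomal RNA, H3K4me3 (a histone modification found at active promoters) and H3K36me3 (one found along transcribed genes) were each measured in 1 library per condition. No difference below therefore has a replicate check or a p-value, and sequencing depth is unknown. In bulk cultures, fewer cells of a type and less RNA per cell cannot be told apart.

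Of 10 smooth muscle markers with a matched locus 9 were expressed, and their summed level was 8731 FPKM in control and 8490 FPKM after AngII. FPKM counts sequenced fragments, scaled for transcript length and library size. Endothelial markers (0 of 5) and adipocyte markers (0 of 4) did not reach 1 FPKM. Of 8 leukocyte markers 3 were expressed, with the defining leukocyte gene Ptprc at 0 in both libraries. The 8 adventitial fibroblast markers summed to 324 and 283 FPKM, 7 of them expressed, led by Lum and Gsn. The 6 markers of Schwann cells or neurons summed to 2.76 and 3.93 FPKM, and 2 of them were expressed. Of the neuronal genes among them, Tubb3 stood at 1.43 and 3.27 FPKM and Rbfox3 and Snap25 at 0. Of 7 striated muscle markers 1 was expressed (sums 4.52 and 5.05 FPKM). The part of other cell types in the values below was not tested.

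Ribosomal protein genes are among the most actively transcribed genes of growing cells, and their products are needed in fixed proportion in each ribosome. Their messages belong to the 5'TOP class: transcription starts at a C within a stretch of pyrimidines, and this terminal oligopyrimidine lets growth signalling through mTOR and Larp1 set how well they are translated. AngII is a growth stimulus of vascular smooth muscle, in which it raises protein synthesis. Mammalian genomes carry many processed copies of these genes, and reads from a message and its copies are hard to tell apart.

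The start of transcription is what these genes are known to share, so it is shown first. RefSeq promoter entries of the assembly GRCr8, each 250 bases before to 50 bases after the annotated start, matched 60 of the 74 genes with 61 entries, because Rps27a has 2. The sequences below run from 35 bases before the start base to 15 bases from it onward, 5′ to 3′ on the gene's strand, with coordinates of GRCr8, a later build than that of the RNA and region tables. Capitals mark the unbroken run of C and T that holds the start base; a line without capitals has A or G there. The first 4 belong to genes of high RNA level.
Rplp0, chr12:46718376-46718425, minus strand: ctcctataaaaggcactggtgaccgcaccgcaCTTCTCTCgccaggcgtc
Rplp1, chr8:71290858-71290907, minus strand: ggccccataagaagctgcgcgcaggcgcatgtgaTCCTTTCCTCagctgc
Rps6, chr5:106420526-106420575, minus strand: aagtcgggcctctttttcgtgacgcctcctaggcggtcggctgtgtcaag
Rpl41, chr7:1563483-1563532, minus strand: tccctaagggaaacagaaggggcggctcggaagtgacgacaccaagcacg
Among these, Rplp0 and Rplp1 start at a C inside a run of 8 and 10 pyrimidines, while Rps6 has G and Rpl41 has A at the annotated start.

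The next 4 belong to genes whose AngII-to-control ratio was among the lowest of the 71.
Rpl10a, chr20:6390498-6390547, plus strand: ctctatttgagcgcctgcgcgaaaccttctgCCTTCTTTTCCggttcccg
Rpl13, chr19:68062479-68062528, plus strand: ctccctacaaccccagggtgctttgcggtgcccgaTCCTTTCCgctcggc
Rps13, chr1:180009646-180009695, minus strand: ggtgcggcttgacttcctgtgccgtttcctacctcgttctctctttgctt
Rps14, chr18:56498225-56498274, plus strand: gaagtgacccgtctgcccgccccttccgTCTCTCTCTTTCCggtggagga
The last 4 belong to genes whose ratio was among the highest.
Rpl38, chr10:100200400-100200449, plus strand: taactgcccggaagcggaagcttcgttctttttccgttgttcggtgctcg
Rps15, chr7:10068101-10068150, minus strand: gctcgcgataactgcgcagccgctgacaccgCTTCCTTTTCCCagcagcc
Rpl35a, chr11:81235007-81235056, minus strand: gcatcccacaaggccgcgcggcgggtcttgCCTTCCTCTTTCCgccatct
Rps15a, chr1:181860270-181860319, minus strand: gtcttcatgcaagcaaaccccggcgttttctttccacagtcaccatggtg
Each of these sets holds genes with a run at the start (Rpl10a, Rpl13 and Rps14; Rps15 and Rpl35a) and genes without one (Rps13; Rpl38 and Rps15a). These 8 genes were chosen by their ratios, whose order lies within the error of a single gene, so nothing is read from the letters about the ratios.

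Over all 61 entries, the start base was C in 54.1%, against 24.1% of the 33469 promoters of the table and 31.3% of the 7226 promoters of other expressed genes. A run of at least 5 pyrimidines counted from the start base stood in 31 of 61 entries, or 50.8% (exact 95% interval 37.7% to 63.9%), against 4.75% of all promoters and 3.47% of those of other expressed genes. Both conditions together, a C start and a run of at least 5, held for 36.1% of the entries against 2.63% and 2.30%. A run of at least 10 that holds the start base was found in 39.3% against 2.49% and 1.80%, and the longest was 21 bases, at Rps23. Annotated pyrimidine starts were thus far more frequent among the ribosomal protein genes, but 29.5% of their entries begin with A or G.

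**Figure D1:**
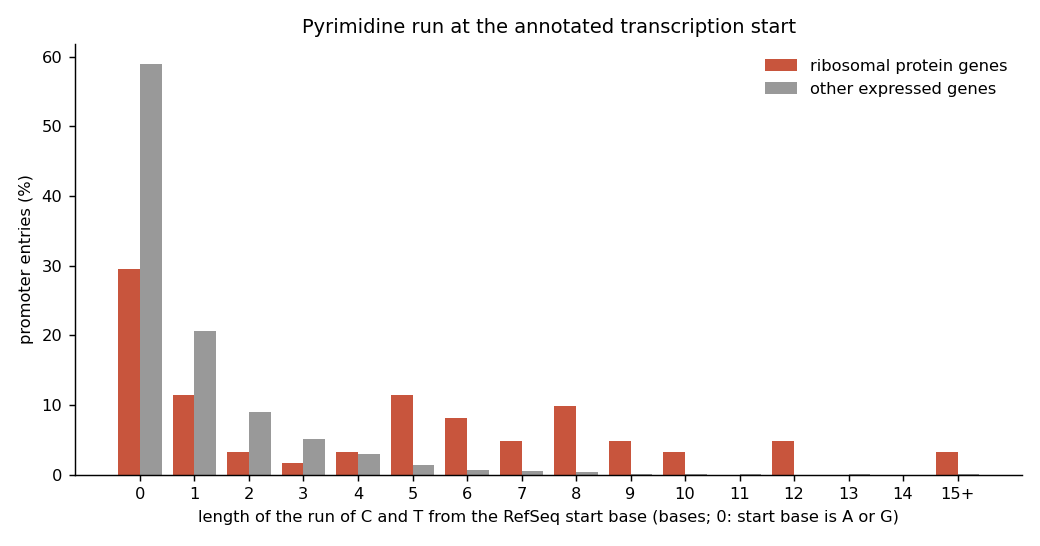
Length of the run of C and T counted from the RefSeq start base, as the percent of 61 promoter entries of ribosomal protein genes (red) and of 7226 entries of other expressed genes (grey). At 0 bases stand 29.5% of the ribosomal protein entries and 58.9% of the others, while at 8 bases stand 9.84% and 0.332%.

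Letters of other promoter elements were searched on both strands between -250 and +50. CCGGAA, a core of ETS-family sites, was present in 50.8% of the entries, 14.95% of all promoters and 30.5% of those of other expressed genes. CTTCCG, whose reverse complement overlaps CCGGAA by 5 letters, was present in 54.1%, 16.6% and 34.3%. ATGGCG, which is part of YY1 sites, stood in 32.8% against 9.98% and 19.0%, and it can hold the start codon. GGGCGG, the GC box of the Sp1 family, stood in 59.0%, below the 64.8% of other expressed genes and above the 33.1% of all promoters. CACGTG, the E-box bound by Myc and USF, stood in 8.20% against 6.42% and 9.87%, and TATAAA in 11.5% against 14.2% and 6.14%. CTTTT stood in 68.9% against 55.9% and 44.2%. These shares describe letters only.

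In both libraries the ribosomal protein genes covered a wide span of RNA levels. Control values of the 71 expressed genes ran from 1.84 FPKM (Rps4y2) through a median of 190.5 FPKM to 2553 FPKM (Rplp0), a 1391-fold range. After AngII the lowest, median and highest values were 1.37, 149.6 and 2009 FPKM. The genes kept nearly the same order: the Spearman coefficient between the libraries was 0.996 over 71 genes, which share their transcript models and both libraries. Ribosomal protein genes held 7.89% of the FPKM summed over all symbols in control and 6.34% after AngII, and the 8 highest held 48.6% of the control total of 28720 FPKM.

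**Figure D2:**
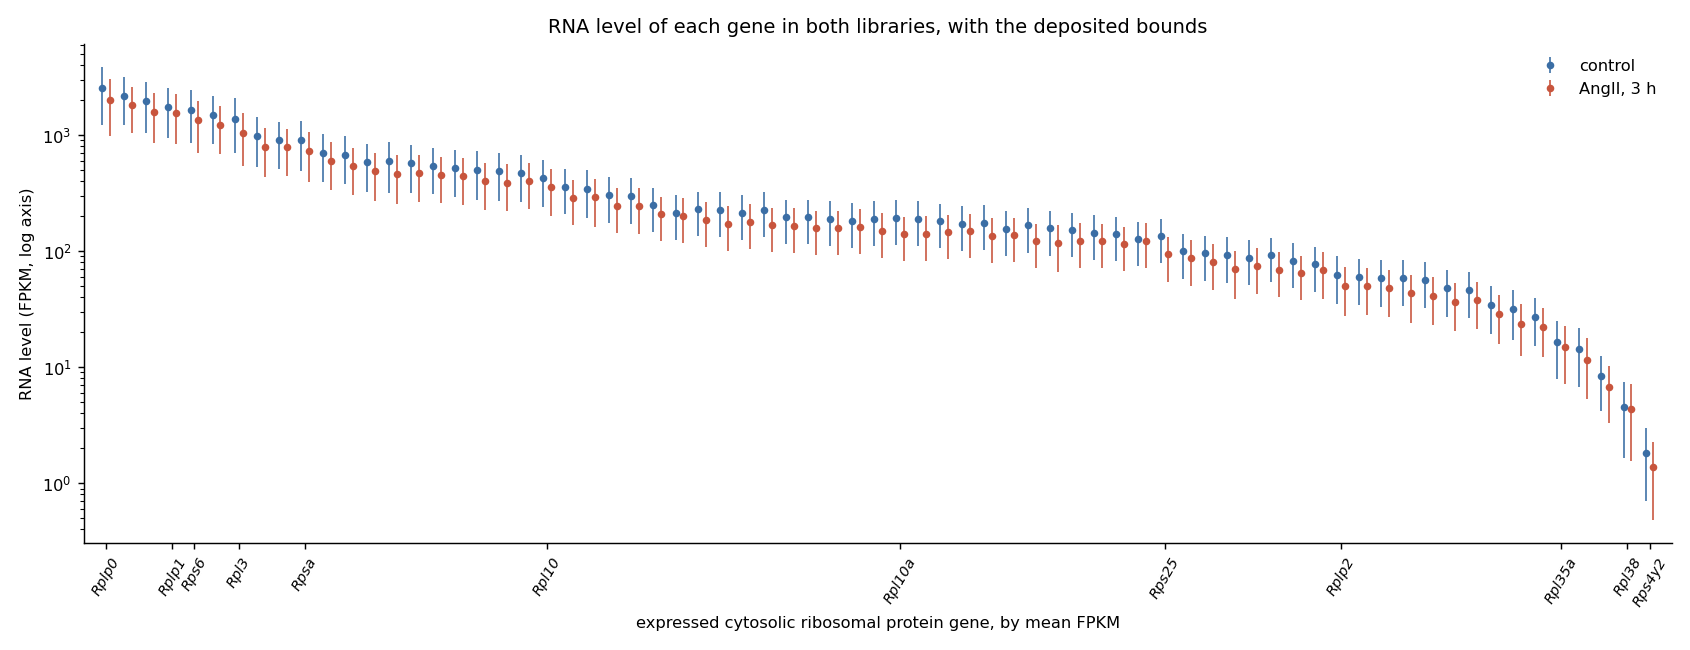
RNA level in FPKM (log axis) of the 71 expressed ribosomal protein genes, ordered by mean level with 12 of them labelled, in control (blue) and after 3 h of AngII (red). Points are the 2 libraries and bars the deposited lower and upper bounds; each red point lies below its blue neighbour, and each pair of bars overlaps.

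The P-stalk is the flexible arm of the 60S subunit that recruits translation factors to the ribosome. Its base, Rplp0, was the highest of all, with 2553 FPKM in control (deposited bounds 1219 to 3887) against 2009 FPKM (986 to 3032) in the AngII library, a log2 ratio of -0.35. Rplp1 stood at 1741 and 1549 FPKM, a log2 ratio of -0.17. Rplp2 stood at only 62.8 and 50.2 FPKM, a log2 ratio of -0.32. Each was lower after AngII, within overlapping bounds, and the partner proteins Rplp1 and Rplp2 differed far more from each other than either differed between libraries.

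Among the large-subunit genes, Rpl37a was listed at 2186 (control) and 1833 FPKM (AngII), and Rpl32 at 1964 and 1586 FPKM. Both values need care. The Rpl37a interval (chr5:146450563-146450926, 364 bp) and the Rpl32 interval lie on other chromosomes than the RefSeq table gives for these genes, as does that of Rpl36. A second Rpl32 locus, on chromosome 3, was listed at 366 and 311 FPKM. Without the 3 genes on another chromosome the median log2 ratio stayed at the value given below to 2 decimals.

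Rpl41, which encodes a very short basic peptide, stood at 1503 and 1232 FPKM, and Rpl3, whose protein reaches towards the peptidyl transferase centre, at 1387 and 1044 FPKM. Rpl10, which joins the 60S subunit late in its maturation, stood at 423 and 354 FPKM in an interval it shares with other genes. Rpl5 and Rpl11 bind the 5S ribosomal RNA and can hold Mdm2. Rpl5 stood at 499.7 and 402.8 FPKM, and Rpl11, also in a shared interval, at 214.4 and 179.5 FPKM. Each of these genes was lower in the AngII library, by a log2 ratio of -0.29 for Rpl41, -0.41 for Rpl3, -0.26 for Rpl10, -0.31 for Rpl5 and -0.25 for Rpl11.

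Among the small-subunit genes, Rps6, the 40S protein that S6 kinases phosphorylate after growth stimulation, was highest, with 1647 FPKM in control (852 to 2443) against 1342 FPKM (708 to 1977) in the AngII library, a log2 ratio of -0.30. Rpsa, the 40S protein first described as a laminin receptor precursor, stood at 908 and 727 FPKM, a log2 ratio of -0.32. Rps19, whose human counterpart is often mutated in Diamond-Blackfan anaemia, stood at 144.3 and 121.2 FPKM, a log2 ratio of -0.25. The Rps19 interval is shared with other genes. The small-subunit genes had a lower median level than those of the large subunit, 156.9 against 195.1 FPKM in control. Rpl5, Rpl11 and Rps19 were chosen for their known roles after their values were seen.

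Low levels were rare. Rps4y2, a paralog of Rps4x, stood at 1.84 and 1.37 FPKM in an interval shared with other genes. Besides it, the lowest expressed genes were Rpl38 (4.53 and 4.35), Rpl7a (8.36 and 6.77), Rps28 (14.2 and 11.6), Rpl35a (16.4 and 14.9) and Rpl12 (27.3 and 22.4 FPKM). Their bounds were wide; those of Rpl38 ran from 1.64 to 7.43 FPKM in control. Rpl3l, the striated muscle paralog of Rpl3, was listed at 0.0281 FPKM in control and 0 after AngII. Rps21 was listed at 0.124 and 0.121 FPKM in an interval shared with other genes, and Rpl36 at 0 in both, on unplaced sequence; a value at or near 0 for a general ribosomal protein may be a failed estimate and is given only as listed.

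Copies of these genes elsewhere in the genome may bear on the levels, which was not tested. The RefSeq table names 1040 copies of the genes, a median of 14.5 per gene and up to 36, and 2 genes have none. The number of copies and the mean level had a Spearman coefficient of 0.025, and the number of copies and the log2 ratio one of 0.05. How the reads of a message were divided among its copies is unknown here, so the level of single genes is uncertain.

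After AngII, RNA of the ribosomal protein genes was lower throughout, by a small and very even margin. All 71 expressed genes had a lower value in the AngII library than in control, where 68.6% of all expressed loci did. The median AngII value was 0.815 times the control value, or 18.5% lower, and single genes ranged from 0.698 to 0.966 times. On the scale log2((AngII FPKM + 1)/(control FPKM + 1)) the median was -0.29 with an interquartile range of -0.34 to -0.25, and the median over all 16654 expressed loci was -0.24 with an interquartile range of -0.54 to 0.11. The middle of the distribution of the ribosomal protein genes thus lay close to that of all loci, and its spread was far narrower, 0.092 against 0.650 in interquartile width.

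None of the 71 was past 2-fold in either direction, where 4.64% of all expressed loci were higher by 2-fold or more and 5.54% lay at least 2-fold lower. None was at least 1.5-fold lower, where 21.9% of loci were. None had bounds that did not overlap, where 8.38% of loci did. By the deposited bounds the typical ribosomal protein gene had a relative SD of 21.4% in control and 21.5% after AngII, which gives its log2 ratio a model SD of 0.438. The SD of the log2 ratio over the 71 genes was 0.093, smaller than this model error of a single gene.

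The direction rests on the scale of the deposited values. When the AngII values were multiplied by 1.21 so that the median over expressed loci was 0, 42 of the 71 genes lay below 0 and 29 above, with a median of -0.016 and a range of -0.24 to 0.23. When they were scaled to the upper quartile of control, by 1.06, the median was -0.20. Genes of similar level offer another comparison: 517 other symbols of at least 100 FPKM had a median of -0.09, an interquartile range of -0.28 to 0.23 and 59.0% below 0, and the 49 ribosomal protein genes of that level had a median of -0.30 with 49 of 49 below 0, where 62.5% of all loci of that level were. The difference between these sets was not tested, since there is 1 library per condition.

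**Figure D3:**
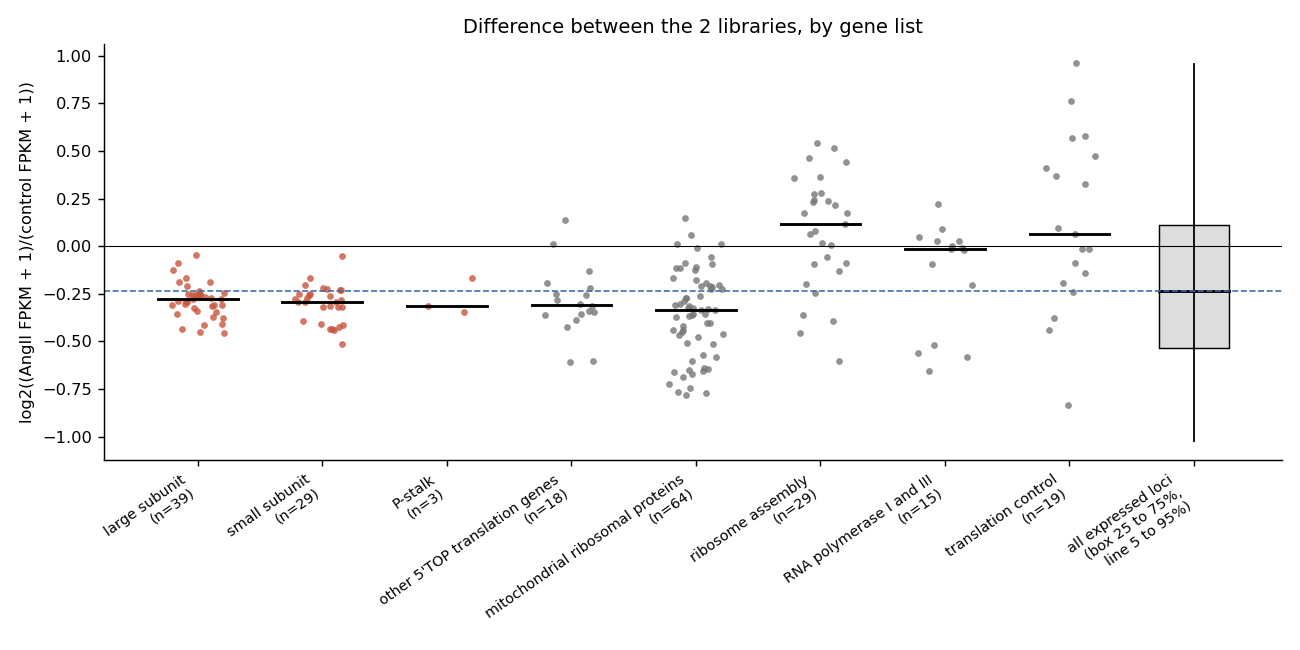
Log2 ratio of AngII to control RNA level, with 1 FPKM added to each, for ribosomal protein genes by subunit (red), 5 other gene lists (grey) and all expressed loci (box). Black bars are medians and the dashed line is the median of all expressed loci at -0.24; the red points lie between -0.51 and -0.05, while the box spans -0.54 to 0.11.

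Both subunits gave the same picture. The median log2 ratio was -0.28 for the 39 large-subunit genes, -0.29 for the 29 small-subunit genes and -0.32 for the 3 stalk genes. Level did not order the ratio: the median was -0.30 for the 7 genes of 1000 FPKM or more, -0.30 for the 42 of 100 to 1000 FPKM and -0.27 for the 22 under 100 FPKM, and the Spearman coefficient between mean level and log2 ratio was 0.007 over 71 genes.

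The lowest ratio was that of Rps25, a 40S protein that several viral internal ribosome entry sites require, with 134.9 FPKM in control (78.8 to 190.9) against 94.1 FPKM (54.5 to 133.6) in the AngII library, a log2 ratio of -0.51. Rpl10a, the protein of the L1 stalk, stood at 192.7 and 140.3 FPKM, a log2 ratio of -0.45. Rpl13 stood at 166.4 and 121.3 FPKM (-0.45), Rps13 at 56.6 and 41.4 FPKM (-0.44), Rps14 at 59.1 and 43.4 FPKM (-0.44) and Rps26, which lies at the mRNA exit of the 40S subunit, at 190.5 and 140.7 FPKM (-0.43). In each of these the bounds of the libraries overlapped.

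At the other end, Rpl38, a 60S protein whose loss in mice disturbs the axial skeleton, stood at 4.53 and 4.35 FPKM, and Rps15, a protein of the 40S head, at 126.9 and 122.6 FPKM, both with a log2 ratio of -0.05; without the added FPKM the AngII value of Rps15 was the nearest to its control, at 0.966 times. Rpl35a stood at 16.4 and 14.9 FPKM (-0.12), Rps15a at 76.8 and 68.4 FPKM (-0.17) and Rpl31 at 181.9 and 161.9 FPKM (-0.17). The whole range between Rps25 and Rpl38 was about as wide as 1 model SD of a single gene's log2 ratio, so the order of genes by ratio cannot be read from these libraries.

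Ratios were also set beside the pyrimidine run at the start. The 30 entries of expressed genes with a run of at least 5 bases had a median log2 ratio of -0.28 (interquartile range -0.35 to -0.25), and the 28 entries with a shorter run had -0.27 (-0.32 to -0.23). The Spearman coefficient between run length and log2 ratio was -0.017 over the 58 entries, which share both libraries.

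Genes translated or regulated together with the ribosomal proteins were described from lists of known members. Counts below 0 in these lists are to be read beside the 68.6% of all expressed loci below 0. None of the listed genes had bounds apart, and none was past 2-fold with 1 FPKM added to the deposited values. Among the named list genes, Rps6ka1 was past 2-fold with 0.1 FPKM added (log2 ratio 1.25) and under centring (1.20) or upper-quartile scaling (1.03), and Eif1 under centring (1.04). Fau, which encodes the small-subunit protein S30 as a fusion to a ubiquitin-like sequence, stood at 183.2 and 155.8 FPKM, a log2 ratio of -0.23. Rps27a, a ubiquitin fusion that the naming rule includes, stood at 171.7 and 148.7 FPKM (-0.21), and the paralog Rpl22l1 at 40.6 and 36.4 FPKM (-0.15). Fau and Rpl22l1, which the naming rule leaves out, lay within the range of the 71.

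Other 5'TOP messages, those of elongation factors and related proteins, had a median log2 ratio of -0.31, with 16 of 18 below 0. Eif4b, a helper of the cap-bound helicase, stood at 149.6 and 97.8 FPKM (-0.61) and Gas5, a non-coding host of small nucleolar RNAs, at 26.3 and 17.0 FPKM (-0.60). Eif4a2 stood at 246.3 and 183.3 FPKM (-0.42) and Tpt1 at 704 and 538.5 FPKM (-0.39). The 2 above 0 were Naca (0.01) and Pabpc1 (0.14). Both lie in intervals shared with other genes, as do Eef2 (-0.36), Rack1 (-0.30) and Eef1g (-0.26) below 0. Under centring on the median locus the list median was -0.03 with 11 of 18 below 0.

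The 64 expressed mitochondrial ribosomal protein genes, whose products translate the messages of the mitochondrial genome, had a median log2 ratio of -0.34, with 60 below 0. Their interquartile range, -0.51 to -0.21, was more than 3 times as wide as that of the cytosolic genes. The lowest were Mrpl30 (14.03 and 7.75 FPKM, -0.78), Mrps33 (32.6 and 18.6 FPKM, -0.77), Mrpl34 (28.5 and 16.3 FPKM, -0.77) and Mrpl2 (10.3 and 5.73 FPKM, -0.75), the last in an interval shared with other genes. Under centring the median was -0.07 with 42 of 64 below 0.

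The median of the ribosome assembly genes lay on the other side of 0 from that of the proteins that are assembled. Their median log2 ratio was 0.12 and 10 of 29 were below 0. Nop58, a core protein of box C/D nucleolar particles, stood at 31.9 and 46.8 FPKM (0.54), Brix1, a 60S assembly factor, at 7.76 and 11.5 FPKM (0.52) and Nip7 at 14.3 and 20.1 FPKM (0.46). Nob1, the nuclease that trims the end of 18S ribosomal RNA, went the other way at 37.9 and 24.6 FPKM (-0.60). Centring gave a list median of 0.37 and upper-quartile scaling 0.19. Both scalings raise the AngII values, so neither could turn a median above 0 negative, and they do not check its sign. The difference from the ribosomal protein genes was not tested.

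Genes of RNA polymerases I and III had a median of -0.02 with 9 of 15 below 0, or 60%, near the 68.6% of all expressed loci. The ratios largest in size were those of Maf1, the repressor of polymerase III (44.7 and 28.0 FPKM, -0.66), Polr3g (2.28 and 1.19 FPKM, -0.58), Polr1d (34.3 and 22.9 FPKM, -0.56) and Polr3k (16.8 and 11.4 FPKM, -0.52). This median turned positive under both scalings, 0.23 with centring and 0.06 with the upper quartile. Translation control genes had a median of 0.06 with 9 of 19 below 0. Rps6ka1, a kinase of the ERK pathway that can phosphorylate Rps6, stood at 1.91 and 4.66 FPKM (0.96), the start-codon factor Eif1 at 57.2 and 97.6 FPKM (0.76), the cap-binding protein Eif4e at 50.01 and 75.2 FPKM (0.58) and Eef2k, the kinase that inhibits Eef2, at 17.7 and 9.45 FPKM (-0.84). Under centring this median was 0.34.

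Histone marks were read as lists of enriched regions, each list made from 1 library. Of the 74 genes 73 lie on chromosomes that the lists cover. H3K4me3 was present within 1 kb of 73 of 73 in control and of 72 of 73 after AngII, where 96.3% of expressed symbols had it in either condition. The exception was the interval listed for Rpl37a, whose control region was 459 bp wide. H3K36me3 touched 73 of 73 in both conditions, against 95.6% of expressed symbols in control and 97.5% after AngII. Rpl3l, below the expression minimum, met both rules in both conditions, but only at an edge. H3K36me3 lay over 15.6% of its bases in the control list and 12.8% in the AngII list. H3K4me3 lay over 13.9% and 12.3% of the Rpl3l interval widened by 1 kb on each side. These regions ran on past the end of the interval.

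The amount of each mark was read over the 60 expressed genes with coordinates of their own, all of them at most 20 kb long, beside 2934 other expressed symbols chosen in the same way. H3K36me3 covered the whole locus of 53 of the 60 genes in control and 59 after AngII, against 66.9% and 71.7% of all such symbols. H3K4me3 covered the whole window, the locus with 1 kb on each side, at 25 genes in control and 28 after AngII (41.7% and 46.7%), against 9.82% and 9.35%. The median window cover was 97.5% and 97.8%, against 33.0% in both conditions at the other symbols. At the 224 other compact symbols of at least 100 FPKM the median cover was 52.3% and 61.1%, and the whole window was covered at 21.9% and 25.4%. H3K36me3 covered the whole locus at 79.5% of these 224 symbols in control and 86.6% after AngII. Those values lay nearer to the ribosomal protein genes than the 66.9% and 71.7% of all such symbols did. The 60 ribosomal protein genes were not filtered by level for this comparison. Their loci were shorter, a median of 2916 bp against 8642 bp for all other compact symbols. The part of length and level in these shares was not tested.

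Region width was read as well. The widest H3K4me3 region at a ribosomal protein gene had a median width of 5432 bp in control and 5920 bp after AngII. These widths were above the 4284 and 4320 bp of the other compact symbols. They were below the 6120 and 6240 bp of those of at least 100 FPKM, a filter not applied to the ribosomal protein genes. Between the libraries the H3K4me3 region was wider after AngII at 34 genes and narrower at 26, where it was wider at 48.1% of all compact symbols. H3K36me3 regions were wider after AngII at 48 of 60 genes, against 66.4%, with medians of 30039 and 41100 bp. These regions run over neighbouring genes, and the bins of the lists differ (153 and 160 bp for H3K4me3, 589 and 548 bp for H3K36me3 in control and AngII), which sets a floor on what a difference in width can show.

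**Figure D4:**
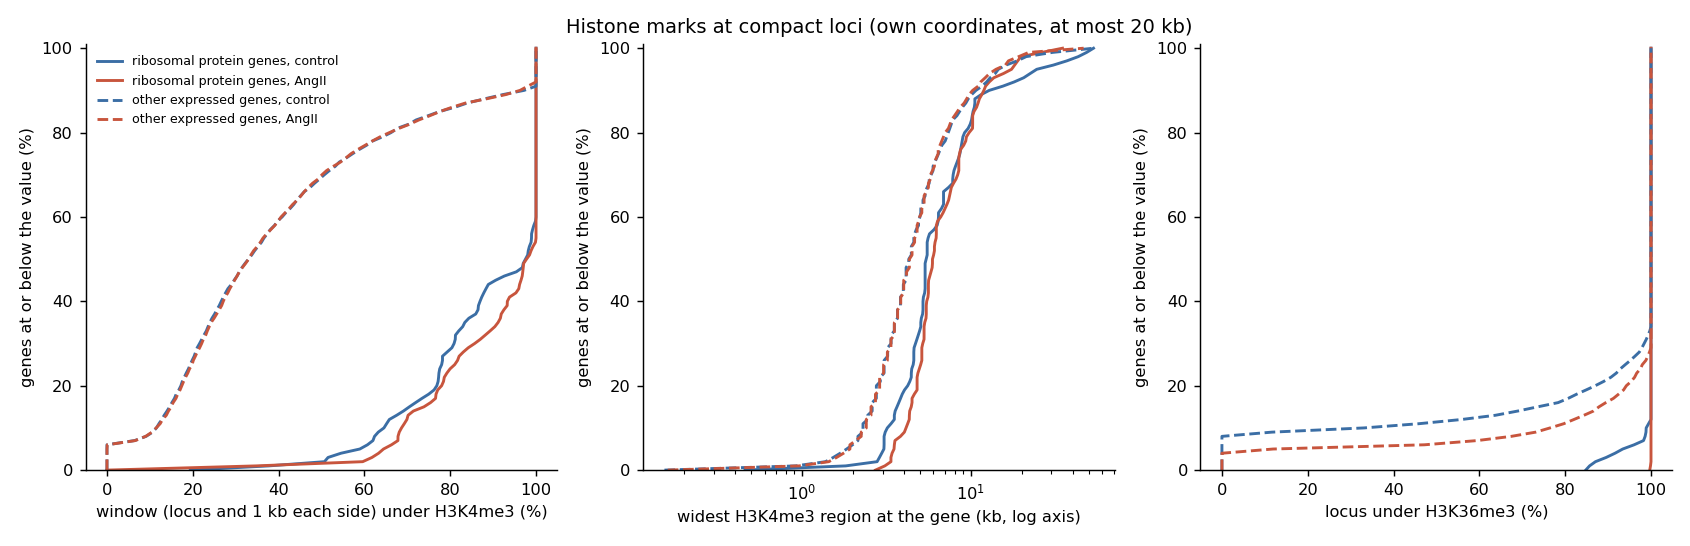
Cumulative share of genes (percent at or below a value) for the percent of the window under H3K4me3, the width of the widest H3K4me3 region in kb (log axis) and the percent of the locus under H3K36me3, at 60 compact expressed ribosomal protein genes (solid) and 2934 other compact expressed symbols (dashed). Blue is control and red is AngII; the solid lines lie to the right of the dashed lines over most of each panel, and the colours nearly coincide within each set for H3K4me3.

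Single loci show what this coverage looks like, in coordinates of rn4. The Rplp0 locus, chr12:42315763-42319032, lay inside an H3K4me3 region of 16830 bp in control (chr12:42309394-42326223) and 13760 bp after AngII (chr12:42309507-42323266), and inside H3K36me3 regions of 154907 and 192896 bp. The Rps6 locus, chr5:106165611-106168472, had an H3K4me3 region of 4590 bp in control and 5440 bp after AngII, which covered 78.2% and 78.3% of the window. Both genes thus carried the promoter mark across nearly all of the transcribed locus in both conditions, with H3K36me3 over the same bases.

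The gene of lowest ratio, Rps25 at chr8:47374302-47376679, had an H3K4me3 region of 12393 bp in control and 5920 bp after AngII, covering 100% and 95.9% of the window. Rpl38, near the other end of the range of ratios, at chr10:104545643-104549279, had regions of 4284 and 5280 bp, covering 76.0% and 93.3%. Larger differences in region width, picked after the values were seen, were those of Rps18 (53244 and 20000 bp), Rplp2 (45135 and 17280 bp) and Rpl24 (4590 and 12320 bp). RNA was lower after AngII at all expressed genes, so these say nothing on width and RNA together: Rps18 stood at 92.2 and 69.3 FPKM, a log2 ratio of -0.41, and Rpl24 at 195.1 and 157.7 FPKM, a log2 ratio of -0.31.

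The authors' region score, used only to rank regions within a list, placed the best H3K4me3 region of a compact ribosomal protein gene at a median percentile of 78.2 in control and 83.9 after AngII, beside 79.1 and 80.8 for the other compact symbols. For H3K36me3 the medians were 78.0 and 74.4, beside 64.4 and 66.9 for all other compact symbols, but 74.9 and 76.3 for the 224 of at least 100 FPKM. Against these 224 symbols the compact ribosomal protein genes, which were not filtered by level, ranked on either side, higher in control and lower after AngII. Lists of different length show no change by such ranks.

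Just downstream or upstream of some of these genes, within 2 kb, the table lists 12 further loci under the same symbols, 267 to 1579 bp away. Their control levels were 0.705 to 2.74 FPKM, far below those of the main loci, and 9 of the 12 were lower after AngII. Of the 81 symbols of the naming rule in the RefSeq table, 7 had no locus of their own. Rpl17 shares a locus with another symbol, and Rpl26, Rpl37, Rps19bp1, Rps27l and Rps9 are among those not analysed here. The 12 genes whose interval is shared with other symbols, such as Rpl10, were kept for RNA and left out of the compact set for the marks.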

How the data were processed

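RNA levels are FPKM, deposited by the authors with a lower and an upper bound for each locus; the RNA tables of both samples are identical byte for byte and hold both conditions. TopHat, Cufflinks and Cuffdiff for RNA, Bowtie for ChIP, and the assembly rn4 are named without versions, per the submitters' processing notes. The score of each region was deposited by the authors and was used only to rank or filter regions within a list; a region caller was not given in the sources used here. Both inputs, 2 libraries, were not analysed here. Per the labels, ribosomal RNA was removed before sequencing.

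Accessions were paired with symbols through a RefSeq table of GRCr8, used for names, chromosomes and counts of named copies; 16252 of 20869 loci with an accession matched. Of 30937 loci, 15 had no usable estimate. A locus was expressed at FPKM of at least 1 in at least 1 library, and 1 FPKM was added before log2 ratios, which understates differences of low genes. H3K4me3 was called at a gene with a region in the locus or 1 kb on either side, and H3K36me3 with at least 1 bp of overlap with the locus. Samples were grouped by title. With 1 library per condition no test was made; deposited bounds are model errors, and exact Clopper-Pearson 95% intervals cover counting error only. The summary code was tested on simulated data. Python 3.11.15, numpy 2.4.6, pandas 2.3.3, scipy 1.17.1 and matplotlib 3.10.9 were used.

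The members and lists were chosen with earlier results of these data known. Named were Rplp0, Rplp1, Rplp2 and Rpsa, the 6 genes of highest and of lowest mean level, the 6 of highest and of lowest log2 ratio, those without a mark or past 2-fold, paralogs with their main genes, and up to 4 genes per other list with the largest absolute log2 ratio; other names were chosen for their known roles or after their values were seen, and a few genes that this rule selects are left unreported. Alternatives varied the pseudocount, FPKM minimum, scaling, choice of locus, window, score filter, overlap and promoter length.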

Additional observations from a re-analysis of the deposited data

How the results depend on the processing

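Of 84 recomputed summary values, 79 stayed within the interval of the reported value or, for counts, within 1.5 times. Some of these could not move, so this count does not measure robustness. Leaving out paralogs removed none of the 71 genes, and the amount of FPKM added cannot change the sign of a ratio. Requiring own coordinates, with or without the 20 kb limit, kept the same 60 genes. Subsets of genes that all lay below 0 passed the limit of 1.5 by their size alone. The 5 that moved came from scaling or from the promoter window. Centring on the median expressed locus gave a median log2 ratio of -0.016 with 42 of 71 genes below 0, and upper-quartile scaling gave -0.20. Between -100 and +50, a window with fewer bases, GGGCGG stood in 42.6% of the entries and CTTTT in 36.1%. For GGGCGG this compares with 25.3% of all promoters and 51.0% of those of other expressed genes, and for CTTTT with 31.3% and 20.9%. The other letters were fewer there too, within their wide intervals: CCGGAA 37.7%, CTTCCG 44.3%, ATGGCG 31.1%, TATAAA 8.20% and CACGTG 3.28%, or 2 of 61 entries. In the same order, promoters of other expressed genes had 21.8%, 24.7%, 14.2%, 3.00% and 5.96%. All promoters had 10.3%, 11.4%, 6.77%, 7.27% and 3.65%. For 54 named genes, 270 recomputed log2 ratios moved by less than the gene's model SD, where the bounds give one. That tolerance, 0.438 for the typical ribosomal protein gene, is wider than the shift from either scaling. The scaling checks could therefore not fail for such a gene. The following alternatives were chosen after seeing the data: a span of at most 20 kb, for RNA and for both marks, minimum mean levels of 20 and 100 FPKM, for RNA and for start bases, and leaving out genes on another chromosome. No paired analysis was possible because each condition has 1 library, and for the same reason no library could be left out. Depth is unknown, and the deposited bounds limit single genes to differences above about their model error.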
